A study of Drosophila melanogaster with 2 samples.

Results

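The peaks described here are the 200 strong Bigmax-GFP peaks that follow the 20 strongest in the reproducible list, out of 1949 reproducible peaks. They were selected on the authors' pooled signal value: the list was sorted by signal, highest first, and ranks 21 to 220 were taken. Signal therefore describes these peaks and tests nothing about them. The remaining 1749 reproducible peaks were the 20 ranked above and the 1729 ranked below.

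The data came from chromatin immunoprecipitation followed by sequencing (ChIP-seq) of whole Drosophila melanogaster embryos, both sexes mixed, collected over 0 to 24 h of development. The flies were transgenic and stably carried Bigmax fused to green fluorescent protein (GFP) at its C terminus. Chromatin was sonicated to 200 to 800 bp, and 2 libraries labelled as biological replicates 3 and 4 formed 1 group with no second condition. The labels name bigmax as the immunoprecipitated protein but their free text calls both libraries input controls; the deposited lists are peak calls made against a separate control, and were read as such. A peak from a whole embryo is a sum over all tissues and stages collected, so binding in more cells and stronger binding in few cells cannot be told apart.

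Bigmax corresponds to Mlx of mammals and belongs to the helix-loop-helix leucine zipper transcription factors. It pairs with Mondo, which corresponds to the mammalian sugar sensors ChREBP and MondoA, and the dimer recognises E-boxes with the core CACGTG, which in sugar-responsive genes are arranged as carbohydrate response elements. In the fly the pair is best known for the response to dietary sugar, in which genes of glycolysis, lipid synthesis and the regulator cabut (cbt) are turned on.

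The sequence shared by more of these peaks than any E-box searched was AGGTTA, and 54.5% held it within 50 bp of the summit. The following stretches show it at genes on which the results turn, each 30 bases of dm6 read 5′ to 3′ on the strand that carries the motif, with AGGTTA in capitals. Cyt-c1, Mdh2 and Idh3a stand for mitochondrial metabolism genes with the summit inside an intron, CCT3 and eIF3i for promoters of protein-making and protein-folding genes, Mondo for the dimer partner, and Sumo and alphaTub84B for summits outside genes.
Cyt-c1, intron, chr3L:5360794-5360823, minus strand: aaacgcgttttgAGGTTAggtccgatcggg
CCT3, promoter, chr3R:16647797-16647826, minus strand: agagaatgagtgAGGTTAgaaccgccgatg
Sumo, intergenic, chr2L:6966480-6966509, plus strand: tgttcaaatttgAGGTTAtgttttcccaga
alphaTub84B, intergenic, chr3R:7089838-7089867, plus strand: gcgcctttattgAGGTTAtgtctgatgtca
sqd, intron, chr3R:13645301-13645330, minus strand: ctcccctttgtgAGGTTAtgtttgtttccc
eIF3i, promoter, chr2L:4967554-4967583, plus strand: aggccgcttttaAGGTTAtgtttggtccgg
Mondo, promoter, chr2L:21309504-21309533, minus strand: tgtgcggcgcacAGGTTAtgtgcgtttcgc
Mdh2, intron, chr3R:18226953-18226982, plus strand: gggccgcgagtgAGGTTAtgtgaccagcgg
Idh3a, intron, chrX:19520991-19521020, plus strand: ttcgtcgcgttgAGGTTAgagtgcacaaat

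The E-box core CACGTG was shared by 7 of the peaks. It is shown in capitals in the following stretches, read 5′ to 3′ on the plus strand of dm6, at ribosomal protein promoters and at srl, the fly counterpart of the mitochondrial biogenesis coactivator PGC-1.
RpL6, promoter, chr3R:31596154-31596183: gccattgtgaaaCACGTGtacacagcacaa
srl, promoter, chr3R:4429284-4429313: ccaaaatttgttCACGTGgaccgagattcg
inc and sta, promoter, chrX:1482957-1482986: aagaaggggctcCACGTGcgacttttcgcc
Ripalpha and RpL7, promoter, chr2L:10201008-10201037: tggcgcgcgtgtCACGTGtgcacgcatttc

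The authors' signal is the peak caller's own measure of enrichment, in units that no label or file note states. Over the 200 peaks it ran between 468.9 and 1766, with a median of 759.8, while the remaining peaks had a median of 154.3. The limits of the selection fell in a continuous run of values. Just inside the upper limit stood RpL40 with a signal of 1766, eIF3k with 1754, Cyt-c1 with 1707, CCT3 with 1693 and Hrb98DE with 1670, and among those just outside it MTPAP with 1767, RpS3 with 1805, the shared promoter of CG17271 and RpS20 with 1817 and Tctp with 1845. Just inside the lower limit stood Idh3a with 468.9, Prps with 469.7, Neb-cGP with 470.0, the shared window of Bet3 and Nf-YA with 471.4 and muc with 471.7. Just outside it were a second summit at eIF3b with 468.6, eIF3l with 468.3, ocm with 466.4, CG1635 with 464.8 and the COX8 and VhaM9.7-b window with 460.9. Neighbours across either limit differed by far less than the range of the 200 peaks.

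Both replicates ranked these peaks in nearly the same places. The replicate signals feed the pooled signal that selected the peaks, so their ranks are a description. With 50% of both intervals required to overlap, 200 of 200 had a partner in the replicate 3 list and 197 of 200 in the replicate 4 list, each list holding 30000 relaxed peaks; no 2 of the peaks shared a partner line. Among the remaining reproducible peaks 82.6% had a partner in both lists. The partner stood among the 220 strongest of replicate 3 for 188 peaks, of replicate 4 for 182 and of both for 171. The only peak outside the 220 strongest of both was the one at CG2794 and uncNacbeta, ranked 221 in replicate 3 and 249 in replicate 4. A match by 1 shared base gave a partner in replicate 4 to the 3 peaks without one, at eIF2gamma, at the shared promoter of inc and sta, and at PpD3.

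The median difference between the 2 replicate ranks of a peak was 14 places, and 119 of 197 peaks had ranks within 20 places of each other. It was 9 places for the first 100 peaks and 27.5 places for the last 100. RpL40, a ubiquitin fused to a ribosomal protein, was ranked 20 in both lists, with a signal of 1037 in replicate 3 and 751.5 in replicate 4. Trl, which encodes the GAGA factor, was ranked 70 in both, mRpS30 was ranked 74 in both, and Hsp60A, the mitochondrial chaperonin, was ranked 111 in both. One of the Sin3A peaks was ranked 28 and 29, srl 67 and 68, and Phb2 88 and 89.

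The largest disagreement was at the second summit of the Sbds and velo promoter, ranked 210 in replicate 3 with a signal of 287 and 1911 in replicate 4 with a signal of 55.2. Its first summit, in the same interval, was ranked 60 and 52. Another 4 peaks, chosen by the size of the gap, lay over 100 places apart. Idh3a was ranked 186 in replicate 3 and 358 in replicate 4, Rack1 167 and 276, and the promoter shared by AGO1, CG33155 and mRpL53 159 and 262. The promoter shared by CenG1A and mRpS23 went the other way, with rank 277 in replicate 3 and 163 in replicate 4.

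**Figure D1:**
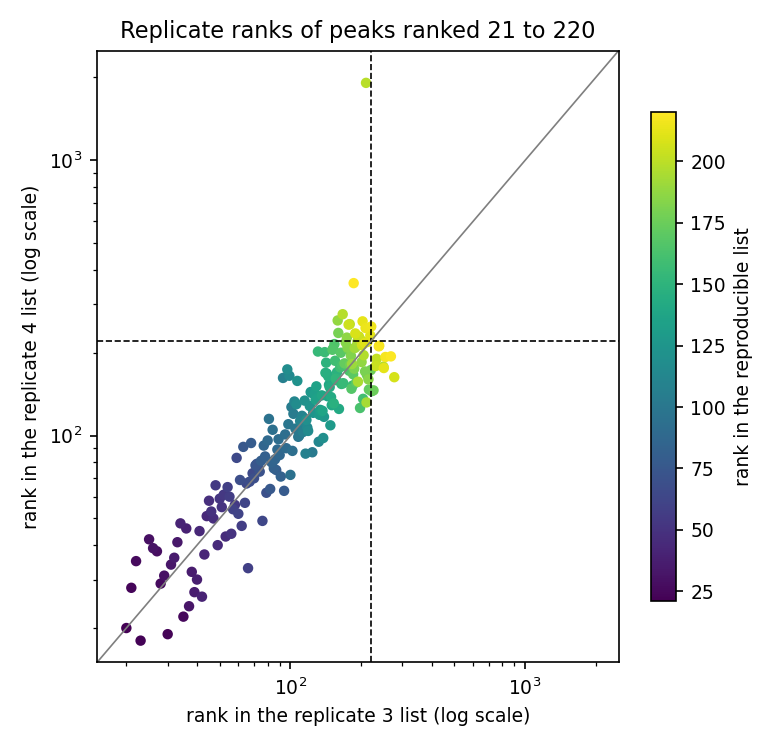
Rank of each of the 197 matched peaks in the replicate 3 list (x axis) and the replicate 4 list (y axis), both on log scales, coloured by rank in the reproducible list; dashed lines mark rank 220 and the grey line equal ranks. The points follow the line of equal ranks, 171 lie inside both dashed lines, and 1 point, the second Sbds and velo summit, stands at rank 1911 in replicate 4.

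Promoters held most of these peaks, at a share that did not differ detectably from the rest. Summits no more than 500 bp from a protein-coding start formed the promoter class, with 143 of 200 peaks (71.5%, 95% Wilson interval 64.9 to 77.3) and 1146 of 1749 remaining peaks (65.5%, 63.3 to 67.7). By a two-sided Fisher's exact test the odds ratio of 1.32 had an adjusted p of 0.326, the adjustment covering 10 features. With a window of 1000 bp the shares were 86.5% and 75.2% and the odds ratio was 2.12, with an adjusted p of 0.00107 by Fisher's exact test, so the call depends on how far from the start a promoter is taken to reach. Of the peaks outside promoters, 43 lay in introns, 7 between genes, 3 in 3′ UTRs, 2 in 5′ UTRs and 2 in other exons. Intergenic summits made up 3.50% of the peaks and 8.23% of the remaining ones, with an adjusted p of 0.0836 by Fisher's exact test for an odds ratio of 0.404. The adjusted p was 0.0327 when replicate 4 alone supplied the ranks and signals and 0.0090 with a 250 bp promoter window.

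Intron summits (21.5% against 22.5%), promoters with starts of different genes on both strands (18.5% against 19.4%) and the X chromosome (15% against 14.9%) did not pass the test either. Their odds ratios were 0.942, 0.941 and 1.01, and the lowest adjusted p of the 3 was 0.945 (Fisher's exact test). By arm, 44 of the 200 peaks were on 2L, 36 on 2R, 32 on 3L, 55 on 3R, 3 on chromosome 4 and 30 on X. No sequence known from fly promoters passed the test, and the lowest adjusted p of the 4 searched by Fisher's exact test was 0.344, for GAGAGA, whose odds ratio was 0.505. The DRE core TATCGATA, the binding sequence of DREF, occurred within 50 bp of 2.5% of summits against 3.6%, GGTCACAC, the core of the promoter element Motif 1, of 4.50% against 3.54%, GAGAGA of 3.00% against 5.78% and the E-box CAGCTG of 8.0% against 7.43%. In windows of the same length centred on all 19252 annotated protein-coding starts these 4 occurred in 4.48%, 4.68%, 4.07% and 8.77%, in the same order. Both strands were searched, and no motif contains the letters of another.

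A close neighbour was the only one of the 10 features tested that passed the threshold. Another reproducible summit lay within 2000 bp of 108 of the 200 peaks (54.0%, 47.1 to 60.8) and of 438 of the 1749 remaining peaks (25%, 23.1 to 27.1), which gave an odds ratio of 3.51 and an adjusted p of 3.88e-15 by Fisher's exact test. The share fell with rank: it was 35.5% in the 200 peaks that follow and 28% in the 200 after those. Close peaks are not independent of one another, so this p is too small. The nearest neighbour of those 108 was weaker in 100 cases and lay at a median distance of 534 bp. For 47 of them it was a second summit in the same called interval, and intervals were wider here, with a median width of 496.5 bp against 400 bp. After summits within 1000 bp of each other were merged to 1 region, 192 of the peaks were kept among 1768 regions, and the shares were 19.3% against 11.2%, with an odds ratio of 1.89 and an adjusted p of 0.0219 by Fisher's exact test. In all, 6 intervals held a pair of these 200 peaks each, at srl, Nmt, RpS23, awd, CG7987 and the Sbds and velo promoter.

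Within promoters the summits lay on the other side of the start from most remaining summits. Of the 143 promoter summits 103 (72.0%, 64.2 to 78.7) were downstream of the nearest start, in the transcribed part, against 445 of 1146 (38.8%, 36.1 to 41.7), which gave an odds ratio of 4.06 and an adjusted p of 8.98e-14 by Fisher's exact test. This is 1 of 2 comparisons chosen after the positions had been seen, and the adjustment covers both. The median position was 58 bp downstream for the peaks and 24 bp upstream for the remaining promoter summits. The remaining ones include 17 promoter summits of the 20 strongest peaks, whose median was 29 bp downstream, while that of the promoter summits ranked below was 25 bp upstream. A downstream median is thus not particular to the 200 peaks. eIF3k was bound 109 bp, eIF3b 163 bp, eIF3c 198 bp, CCT3 199 bp and RpL40 169 bp downstream of the start. By contrast Mondo was bound 17 bp, Hsp60A 6 bp and Diap1, an inhibitor of apoptosis, 41 bp upstream. Among promoter peaks with AGGTTA near the summit the difference was smaller, 46 of 67 against 70 of 131 (68.7% against 53.4%), with an odds ratio of 1.91 and an adjusted p of 0.0477 by Fisher's exact test. Among those without it, 57 of 76 were downstream against 375 of 1015, an odds ratio of 5.12 with an adjusted p of 2.1e-10 by Fisher's exact test. Whether the groups with and without the motif differ in this was not tested. The difference stayed when divergent promoters were left out, with an odds ratio of 4.35 and an adjusted p of 6.29e-11 (Fisher's exact test).

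Intron summits were compared in another way, by how many stood just past the promoter window on the downstream side. They lay more than 500 and at most 1000 bp downstream of the nearest start in 23 of 43 cases (53.5%, 38.9 to 67.5) against 84 of 394 (21.3%, 17.6 to 25.6), which gave an odds ratio of 4.24 and, as the second of the same 2 comparisons, an adjusted p of 1.72e-05 by Fisher's exact test. Among introns that held AGGTTA near the summit, 21 of 33 were in this zone against 30 of 97 (63.6% against 30.9%), with an odds ratio of 3.91 and an adjusted p of 0.00336 by Fisher's exact test. Among those without it, 2 of 10 were there against 54 of 297 (20% against 18.2%), with an odds ratio of 1.13 and an adjusted p of 1 by Fisher's exact test, a group of the peaks too small to bound the difference closely.

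**Figure D2:**
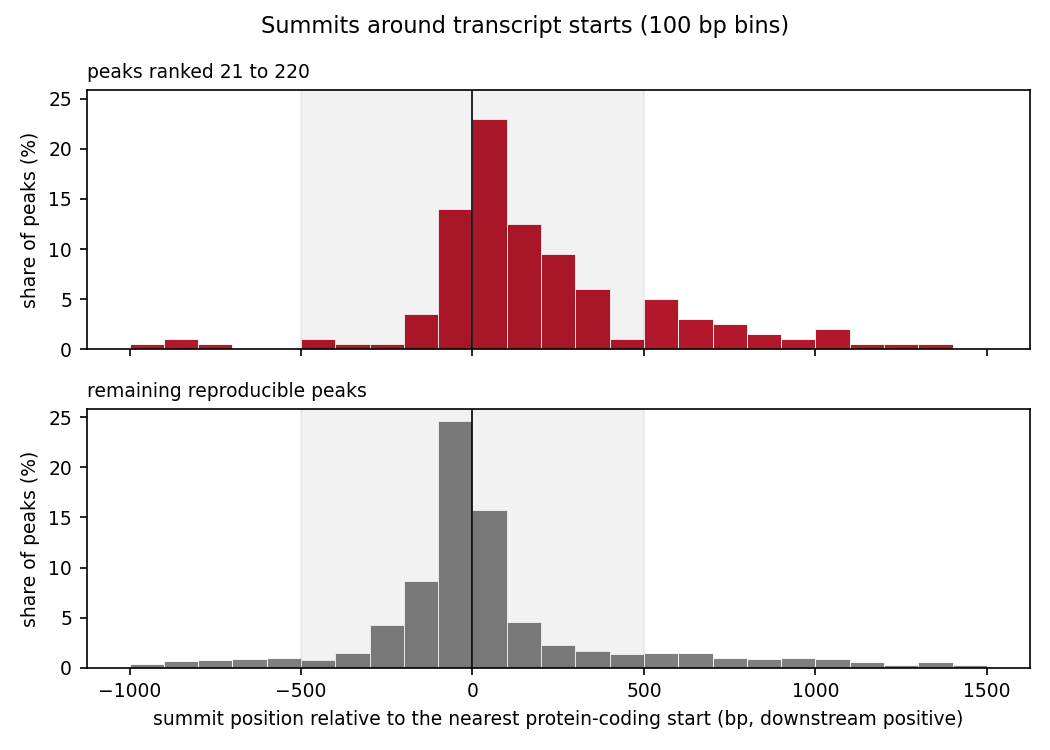
Share of peaks (y axis, percent) by position of the summit relative to the nearest protein-coding start in bins of 100 bp (x axis, downstream positive), with peaks ranked 21 to 220 in the upper panel and the remaining reproducible peaks in the lower; the shaded zone is the 500 bp promoter window. The fullest bin of the peaks is the first 100 bp downstream with 23.0%, and a tail runs on past 500 bp downstream. Of the peaks 20 and of the remaining ones 388 lie beyond the axis.

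**Figure D3:**
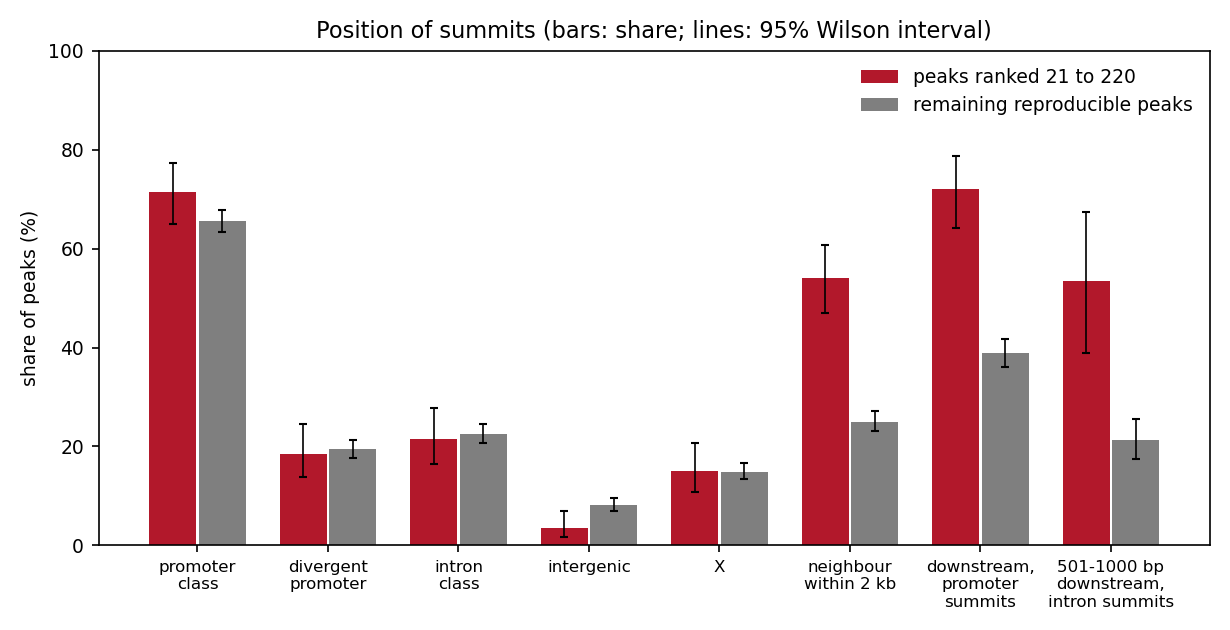
Share of peaks ranked 21 to 220 (red, left bars) and of remaining reproducible peaks (grey, right bars) with each position feature, with 95% Wilson intervals. The last pair of features counts only promoter summits (143 and 1146) and only intron summits (43 and 394); the intervals are apart for a neighbour within 2000 bp and for both downstream features.

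AGGTTA was near the summit of 109 of the 200 peaks (54.5%, 47.6 to 61.3), 276 of the 1749 remaining ones (15.8%, 14.1 to 17.6) and 1.84% of windows of that length centred on all annotated starts. Its relation to signal was known from earlier results on this list and is described without a test. The 20 strongest peaks, counted here among the remaining ones, held it in 13 of 20 (65.0%, 43.3 to 81.9). The 200 peaks that follow in rank held it in 32.5%. It was commoner outside promoters than in them, at 42 of 57 peaks (73.7%, 61.0 to 83.4) and 67 of 143 (46.9%, 38.9 to 55.0), and it stood at 33 of 43 intron summits (76.7%, 62.3 to 86.9). Its centre was a median of 17.5 bp from the summit. Relative to the nearest gene it had no clear preferred strand, with 35 of 67 promoter copies and 18 of 33 intron copies on the strand of the gene. Promoter summits downstream of the start held it in 44.7% of cases and those upstream or at the start in 52.5%.

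The bases beside AGGTTA were also uneven. The printed stretches were picked for their genes and do not represent the shares over all 109 peaks with the motif. In the copy nearest each summit, the base before it was G in 60.6% of the peaks against 40.9% of the remaining peaks with the motif, and the base before that was T in 75.2% against 57.3%. TTTG came directly before the motif in 28 of 109 (25.7%, 18.4 to 34.6) against 34 of 276 (12.3%, 8.95 to 16.7). TGT came directly after it in 37 of 109 (33.9%, 25.7 to 43.3) against 38 of 276 (13.8%, 10.2 to 18.3). The 7-base form GAGGTTA occurred near 33.5% of summits against 6.52%. In 6 peaks there was more than 1 copy: Vha68-2, a subunit of the proton pump of the vacuole, held 3, and eRF3, gw, wde, Trl and Rack1 held 2 each.

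**Figure D4:**
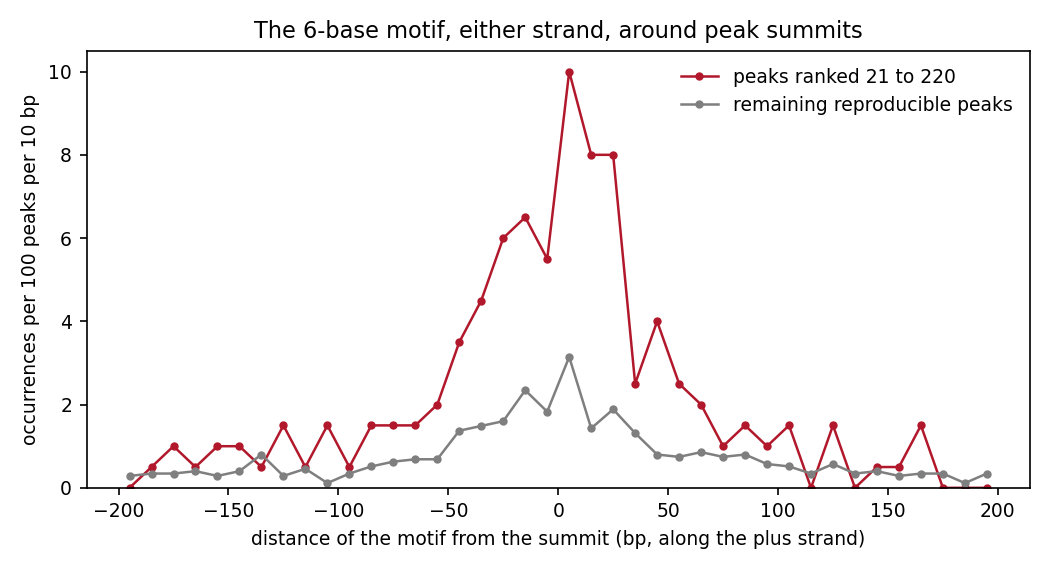
Occurrences of AGGTTA on either strand per 100 peaks in bins of 10 bp (y axis) by distance from the summit along the plus strand (x axis, bp), for peaks ranked 21 to 220 (red) and the remaining reproducible peaks (grey). The red line reaches 10 per 100 peaks in the bin from 0 to 10 bp and stays above the grey line within 50 bp on either side.

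CACGTG, the sequence that Mondo and its partner are known to bind, was near the summit of only 7 peaks (3.50%, 1.71 to 7.05) against 46 remaining ones (2.63%, 1.98 to 3.49), and 1.82% of the windows at all annotated starts. The 7 were at the shared promoter of CG6693 and RpL3, at RpS24, at RpL6, in an intron of Tudor-SN, at srl, at the shared promoter of inc and sta, and at the shared promoter of Ripalpha and RpL7. Of the genes there, 5 encode ribosomal proteins, sta among them. Of the 7 peaks 5 also held AGGTTA. The srl peak with CACGTG, 35 bp downstream of the start, was the weaker of the pair at that gene with a signal of 923, and the other, 234 bp downstream with AGGTTA and no CACGTG, had 1109.

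Of 13945 protein-coding genes, 175 (1.25%) had a start within 500 bp of one of the 200 summits and 1557 (11.2%) of any reproducible summit. Of the 175, 56 also had a weaker or stronger reproducible promoter peak outside the 200, and 38 carried a CG number only. Genes were grouped by 31 lists of functions, described by counts and without a test; 65 of the 175 were in at least 1 list and 110 in none. Where a list has few genes, 0 with one of the peaks is also what the share of all genes, 1.25%, gives. A count of 1 in such a list is too small to set apart from that share. A summit in a shared window counted for each gene in it.

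Cytosolic ribosomal proteins had one of the peaks at 16 of 91 genes (17.6%), and 53 more had only another reproducible promoter peak. RpL40 was strongest, followed by RpL3 with a signal of 1598, RpS9 with 1567 and RpS5a with 1546, and the median of the 16 was 760. Translation initiation had them at 7 of 44 genes (15.9%) with a median of 1320. Of those 7, 6 were subunits of eIF3, the complex that brings the small ribosomal subunit to the mRNA: eIF3k, eIF3b with 1652, eIF3c with 1560, eIF3m with 1320, eIF3i with 1110 and eIF3d1 with 797. The other was eIF2gamma with 888, a subunit of the factor that delivers the initiator tRNA.

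The eIF3 family, picked out after its values were seen, has 16 genes in the annotation. Its count therefore cannot be weighed against the 1.25% of all genes. Another 4 members had weaker reproducible promoter peaks, eIF3l with 468.3, eIF3e with 389.7, eIF3a with 154.9 and eIF3h with 132.8, and 6 had none. The peaks thus covered some genes of the family and left others without one. These are counts of genes and not of subunits: eIF3d1 had one of the peaks and eIF3d2 had none.

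Translation elongation and release had peaks at 2 of 10 genes, eEF2 with 944 and eEF1alpha1 with 636. Of these 2 genes, 1 also had a peak among the 20 strongest, so its value here is not its highest. Another 5 of the 10 genes had only a reproducible promoter peak outside the 200. A further member, the termination factor eRF3, had its peak in an intron 761 bp downstream of the start with 1499. Aminoacyl-tRNA synthetases, which charge tRNAs, had 4 of 35, GluProRS with 1319, LysRS with 1105, TyrRS-m with 689 and AspRS with 573. RNA-binding regulators of translation had 4 of 23, Hrb98DE with 1670, gw, a core factor of microRNA silencing, with 1430, Hrb27C with 964 and yps with 502. In the same list rin and sqd had intron peaks. Spliceosome genes had 2 of 35, snRNP-U1-70K with 1546 and Sf3b3 with 561, nucleolar genes 2 of 20, Non1 with 1055 and nop5 with 642, and RNA polymerase subunits 1 of 30, Polr3D with 667.

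Protein folding was led by the CCT chaperonin, the ring that folds actin and tubulin. Of its 8 subunit genes, 5 had one of the peaks, CCT3 with 1693, CCT6 with 1049, CCT5 with 1020, CCT2 with 929.5 and CCT7 with 765, the largest share of any of the 31 lists (62.5%). CCT8 stood above them among the 20 strongest with 1914, CCT1 had a weaker peak with 347, and CCT4 had no reproducible promoter peak. Other chaperones had 2 of 29, Hsp60A with 805 and Hsp83 with 563, and Hsp110 had an intron peak 587 bp downstream of its start with 1277. The proteasome, which degrades proteins, had 0 of 48, beside 1.25% of all genes.

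Mitochondrial genes were reached both at promoters and inside introns. Mitochondrial ribosomal proteins had 6 of 75, led by mRpS30 with 1093 and mRpL48 with 1078, while mRpL1 had 714 and mRpL12 had 540. Mitochondrial import and outer membrane genes had 3 of 18, porin, the outer membrane channel, with 1362, Tom70 with 854 and Tim8 with 790. Respiratory chain and ATP synthase genes had 5 of 90, ATPsynE with 1511, ND-23 with 1011, ATPsynbeta with 709, ND-PDSW with 604 and UQCR-C1 with 489. The peak at Cyt-c1, the cytochrome c1 subunit of complex III, covered chr3L:5360098-5361108 and had its summit in an intron 599 bp downstream of the start.

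No gene of the tricarboxylic acid cycle had one of the peaks within 500 bp of its start (0 of 22, beside 1.25% of all genes). Another reproducible promoter peak was found at 6 of the 22. SdhA, Mdh2 and Idh3a had peaks of the 200 in introns. Mdh2, malate dehydrogenase, had a signal of 781 at 555 bp downstream, SdhA, of succinate dehydrogenase, 668 at 617 bp and Idh3a, of isocitrate dehydrogenase, 468.9 at 783 bp. blw, the alpha subunit of ATP synthase, had 1274 at 560 bp. These 4 and Cyt-c1 held AGGTTA near the summit. The 2 prohibitins, scaffold proteins of the inner membrane, both had promoter peaks, Phb1 with 1319 and Phb2 with 949.9. This pair was picked out after its values were seen, so it cannot be weighed against the 1.25% of all genes.

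In the Max network, 1 of 5 genes had one of the peaks: Mondo, at chr2L:21309277-21309699, with a pooled signal of 815, rank 101 in replicate 3 with a signal of 508 and rank 127 in replicate 4 with a signal of 305. Glycolysis had 0 of 13 genes and the list of sugar response genes 0 of 10, beside 1.25% of all genes; another reproducible promoter peak was found at 3 of the 13 and 1 of the 10. The peak nearest to cbt lay 1416 bp upstream of its start, in an intron of ush, at chr2L:480938-481261, with a signal of 646 and neither CACGTG nor AGGTTA within 50 bp of the summit. TOR and insulin signalling genes had 0 of 18, although 9 of them had another reproducible promoter peak.

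**Figure D5:**
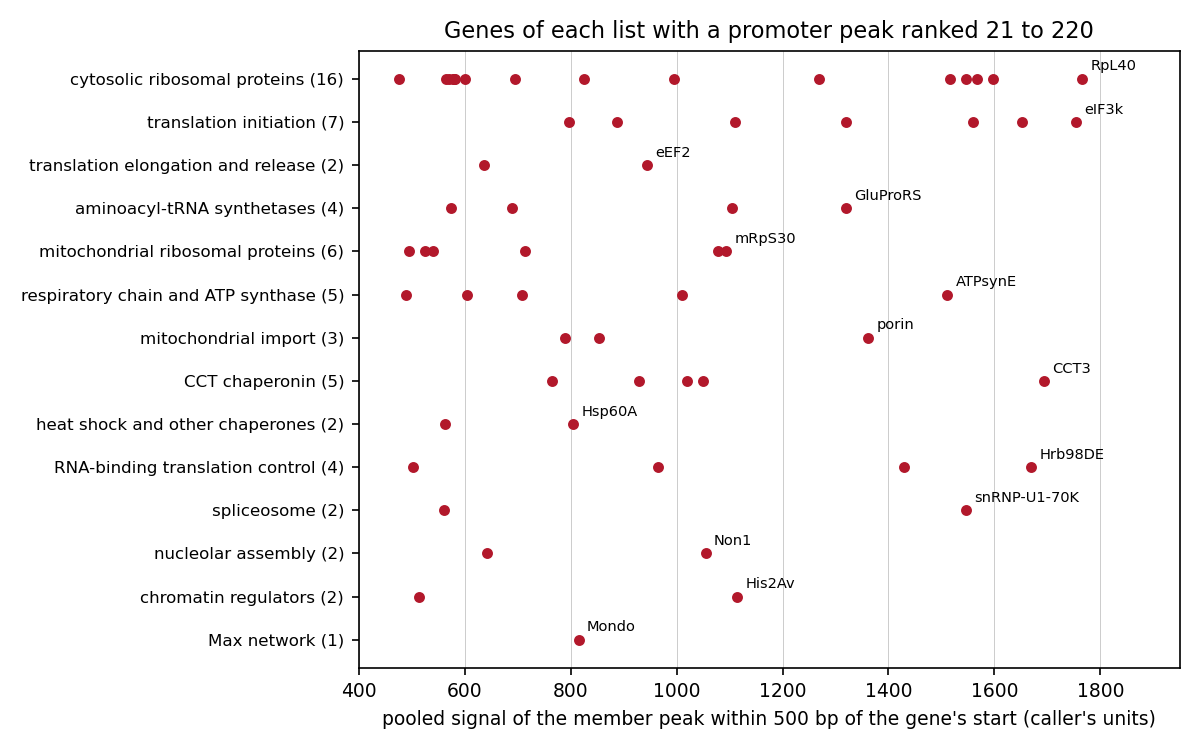
Pooled signal (x axis, caller's units) of the peak ranked 21 to 220 within 500 bp of each gene's start, one point per gene, for 14 of the lists, with the number of genes in parentheses and the strongest gene named. Ribosomal proteins spread over the range from 475.7 to 1766, and the initiation factors lie at 797 and above.

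The 10 strongest peaks outside promoters were at Cyt-c1, Sin3A, tara, Cam, a second site of Sin3A, nrv2, eRF3, dco, CG42588 and Hsp110, with signals between 1277 and 1707, all in introns. Sin3A, the scaffold of a histone deacetylase corepressor, had its pair of intron summits 694 and 578 bp downstream of its starts with signals of 1629 and 1604. The tara peak lay in an intron 6212 bp upstream of the nearest start with 1624, the Cam (calmodulin) peak 1305 bp downstream with 1623 and the nrv2 (sodium pump) peak 2331 bp downstream with 1517. Of the 57 peaks outside promoters, 14 (24.6%) were over 2000 bp from a start, against 50.6% of the remaining 603. Within 1000 bp of a start stood 173 of the 200 peaks, and 0 summits fell in the coding-exon class.

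There were 7 peaks between genes. The strongest was 1088 bp downstream of a start of Sumo with 1264, the next 15840 bp from a start of CHES-1-like with 1251, and the third 3251 bp downstream of the start of alphaTub84B with 1146. The Sumo and alphaTub84B peaks had AGGTTA within 10 bp of the summit and the CHES-1-like peak had none within 50 bp.

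Several small families, picked out after their values were seen, had more than 1 member among the peaks. Over all genes the share with a promoter peak of the 200 was 1.25%. Groups drawn up with the values known cannot be weighed against it. Of 10 genes of the Ran cycle of nuclear transport, Rcc1 with 796 and RanGAP with 486 had promoter peaks, and Nup358 with 1078, Fs(2)Ket with 798 and Ran itself with 619 had intron peaks between 584 and 745 bp downstream of the start. Of 9 hnRNP and related RNA-binding genes 5 had promoter peaks, Hrb98DE, Hrb27C, Rm62 with 754, caz with 596 and SC35 with 543, and sqd had an intron peak with 1129. Of 11 genes of RNA silencing and P bodies 6 had them, vig with 1607, gw, spn-E with 1011, squ with 777, AGO1 with 525 and nanos. The spn-E, AGO1 and nanos peaks lay in windows shared with other genes. The spn-E summit was nearest to the start of ND-23 and inside that gene, and the nanos summit likewise at CG11779. Tudor-SN had a pair of intron summits with 1019 and 634.

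The other strong promoter peaks, ranked 21 to 50, were at CtsF, a cathepsin, with 1625, at the shared promoter of ATPsynE and Afti, at SLIRP1 and anox with 1389, at CG4884 with 1382, at EndoGI and PRL-1 with 1368, at Aef1 with 1354, and at AP-1sigma and GluProRS with 1319. RpS24 completed this group with 1517. The list of chromatin regulators had 2 of 151 genes (1.32%), close to the 1.25% of all genes. They were His2Av, the variant histone H2A.Z, with 1114 and the Polycomb gene ph-p with 514. In the same list Sin3A had intron peaks. That share holds for promoter peaks of this list only. The list does not hold wde, Ssrp and msl-2, which also had promoter peaks, the last in a window shared with ND-PDSW. Nor does it hold osa, Bicra, simj and MTA1-like, which had intron peaks. The share therefore depends on which genes the list holds. Insulator and promoter factors had 1 of 18, pzg with 593, with Trl bound in an intron with 1104. Transcription elongation had 0 of 10 with Spt6 bound in an intron with 816. The vacuolar ATPase had 1 of 33, Vha68-2 with 524, and the cell cycle 1 of 33, CycC with 489. The share to set beside these counts is again the 1.25% of all genes. The CycC summit lay in a window shared with UQCR-C1 and was nearest to the start of UQCR-C1.

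The counts of the other lists were 0, beside 1.25% of all genes. Hox genes had 0 of 8, segmentation genes 0 of 21, cytoskeleton genes 0 of 26 with alphaTub84B as the nearest gene of an intergenic peak, ubiquitin genes 0 of 22 and vesicle traffic genes 0 of 69. Another reproducible promoter peak stood at 0 of the Hox genes, 3 of the segmentation genes, 4 of the cytoskeleton genes, 4 of the ubiquitin genes and 8 of the vesicle traffic genes. Chemoreceptors (0 of 179) and cuticle proteins (0 of 114), which served as controls, had 1 gene each with another reproducible promoter peak.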

How the data were processed

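Peak lists came from 2 ChIP-seq libraries (1 group, replicates 3 and 4). The authors, per the deposited notes, aligned reads to dm6, called relaxed peaks per replicate and pooled against a control, and thresholded the pooled peaks by irreproducible discovery rate; which caller and settings they used is not stated. The measured columns are the authors' signal value per peak and the deposited −log10 q-value, which was 3.64 on every reproducible line and so ranks nothing. No counts are given, so depth is unknown, and intervals cover the counting of peaks only.

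Computed here, with Python 3.11.15, pandas 2.3.3, SciPy 1.17.1 and NumPy 2.4.6, were ranks, classes from Ensembl 115 gene models (FlyBase 6.54; windows of 500 bp), motifs within 50 bp of summits, replicate partners (50% reciprocal overlap) and two-sided Fisher's exact tests, Benjamini-Hochberg adjusted over 10 features, threshold 0.05. Fisher's exact test was tried on simulated independent counts only, which do not hold the clustering of these peaks and so cannot vouch for the p-values here. Peaks sharing a locus are not independent, so p is too small. The members and lists were chosen with earlier results of these data known. Genes were named by rule: ranks 21 to 50, up to 4 per list, the 10 strongest outside promoters, 5 at each side of the rank limits, 5 with the largest and smallest replicate rank differences, and those with most AGGTTA copies; named families were added after seeing values. Some genes that the rule takes are left out of the text. Alternatives were other windows, merged summits, each replicate alone, and subsets of the list. Sequences were read from the Release 6 (dm6) assembly; arm 2R sequence is not shown here.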

Additional observations from a re-analysis of the deposited data

How the results depend on the processing

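Of the results past the threshold, a neighbour within 2000 bp and a promoter summit downstream of the start kept their direction and their call under every alternative run, with odds ratios of 1.89 to 3.88 and 1.91 to 5.12. The promoter odds ratio ran from 1.06 to 2.12 and passed at 1000 bp; the intergenic one ran from 0.328 to 0.464 and passed at 250 bp (0.328) and without replicate 3 (0.373; 0.459 without replicate 4). The intron odds ratio turned over among the 100 stronger peaks (1.03), among peaks matched in both replicates (1.02) and at 250 bp (1.17), and passed at 1000 bp (0.530). Divergent promoters turned over among the 100 weaker peaks (1.24) and at 1000 bp (1.44), and ran from 0.512 to 1.44 over all alternatives, with 0.851 to 1.01 when 1 replicate was left out. X turned over among the 100 weaker peaks (0.928), against the stronger part of the list (0.991), among matched peaks (0.982) and without replicate 4 (0.954). GGTCACAC turned over among the 100 weaker peaks (0.842) and within 25 bp (0.936), and CAGCTG among the 100 weaker peaks (0.656). The intron zone up to 1000 bp downstream lost its call without AGGTTA (1.13). AGGTTA stood at 35.5% within 25 bp and 68.0% within 100 bp. GAGAGA and TATCGATA missed the threshold in the same direction throughout. The cause of these changes was not tested beyond the windows' own construction. The alternatives for both downstream features were chosen after seeing the data. The number of genes with a promoter peak ran from 132 to 244. No paired analysis was possible because the series holds 1 group. Relaxed lists of fixed length and unknown depth limit the replicate matching.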
